A study of Homo sapiens with 6 samples.

Results

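The genes described are 34 lysosome, V-ATPase and autophagy genes, taken by symbol from the 35750 genes of the expression table, and all 34 were found there. They fall into 3 transcription factors of the MiT/TFE family, 7 subunits of the V-ATPase, 12 lysosomal hydrolases and their activator, 6 lysosomal membrane proteins and lipid or cation carriers, and 6 autophagy genes. The libraries came from T98G, an established human glioblastoma cell line grown in DMEM with fetal bovine serum, and poly(A) RNA was sequenced. The labels name 3 libraries with a control short hairpin RNA (shControl) and 3 with a short hairpin RNA against SLC1A5, a transporter that brings glutamine and other neutral amino acids into the cell (shSLC1A5). They give no hairpin sequence, vector, time after transduction or number of clones, and nothing in them ties a library to its own culture. The p-values therefore reflect library-to-library spread, which may be purely technical.

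Lysosomes break down material that arrives by endocytosis and by autophagy, the process that encloses cytoplasm in a double membrane and delivers it for digestion. The V-ATPase, a rotary proton pump with a cytosolic V1 sector that hydrolyses ATP and a membrane V0 sector that carries protons, acidifies the lumen in which the hydrolases work. TFEB, TFE3 and MITF bind E-box motifs in the promoters of many of these genes, and mTORC1, a kinase complex that senses amino acids on the lysosomal surface, keeps these factors in the cytosol when nutrients are plentiful.

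Promoter letters are shown first because the MiT/TFE factors are known to act through the E-box CACGTG and a longer palindrome around it, and the sequences let the genes that carry it be set beside their fold changes. RefSeq promoters on GRCh38.p14, each 300 bases from 250 before to 50 after the gene start, were matched by symbol for 25 of the 34 genes. Only 1 window was kept per symbol, so other start sites of a gene were not searched. The window of NPC1 (23586457 to 23586756) lies away from its listed span, which ends at 23576947. CACGTG, which reads the same on both strands, occurred in 7 of these 25, against 10.5% of the 8664 matched promoters of tested genes. TCACGTGA, which contains CACGTG, occurred in 4 of 25 against 2.16%, and the same 8 letters with G before and C after, a 10-letter palindrome, in 1 of 25 against 0.900%. The windows below, 30 bases each and written 5′ to 3′ along the gene's strand with the matched letters in capitals, show each of the 8-letter or longer matches that lies in ATP6V0D1, CTSA and MCOLN1, 1 of the 2 in LAMP1, and the 6-letter match in CTSD.
ATP6V0D1, chr16:67481199-67481228, minus strand: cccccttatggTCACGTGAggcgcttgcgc
CTSA, chr20:45891298-45891327, plus strand: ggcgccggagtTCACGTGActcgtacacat
LAMP1, chr13:113297199-113297228, plus strand: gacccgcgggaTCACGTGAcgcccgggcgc
MCOLN1, chr19:7522571-7522600, plus strand: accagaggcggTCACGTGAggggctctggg
MCOLN1, chr19:7522598-7522627, plus strand: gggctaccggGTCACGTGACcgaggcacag
CTSD, chr11:1763957-1763986, minus strand: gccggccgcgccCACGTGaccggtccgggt
The other 2 genes with CACGTG were NEU1 and CD63. A match is a description of letters in a window and not of a bound site. The promoters of ATP6V0E1, ATP6V1A, ATP6V1B2, ATP6V1C1, ATP6V1H, CTSB, HEXA, PSAP and LAMP2 were not matched.

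Total counts ran from 59327548 to 70802167 per library. SLC1A5 itself was at 95.8 ± 1.15 FPKM in shControl and 87.9 ± 0.407 in shSLC1A5 (SD, n = 3; FPKM scales fragments by gene length and by depth), a level lower by a log2 fold change of -0.14 (SE 0.0183, adjusted p = 0.000193, edgeR quasi-likelihood F test, Benjamini-Hochberg) and of -0.34 after the GC/length correction described further on (adjusted p = 4.66e-07), so directions below are those of the libraries labelled shSLC1A5. Of 7 markers chosen for T98G, 6 passed the expression minimum, and NES, a progenitor marker, was near 0 at 0.0959 and 0.185 FPKM. Markers of other cells differed between libraries. The B-lineage sums were clearly higher in every shSLC1A5 library, while the myeloid and red-cell sums were high mainly in shSLC1A5 replicate 1. The 14 myeloid markers summed to between 6.43 and 7.11 CPM (counts scaled to equal depth) in shControl and to 82.1, 7.70 and 7.09 in shSLC1A5 replicates 1, 2 and 3, with 4 of 14 at 0 in every shControl library. The 6 B-lineage markers summed to at most 0.152 in shControl and to between 7.69 and 15 in shSLC1A5, with 4 of 6 at 0 in every shControl library, and the 4 red-cell markers in the table to at most 0.0955 and to between 0.104 and 11. Values without shSLC1A5 replicate 1 are given for TFEB, CTSD, CTSB and NPC1, and for other named genes whose call changed without it. Leaving out this library does not remove the B-lineage reads of the others. The part of the other such reads in the results was not tested.

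Across the 33 genes tested the difference between the groups was small and went both ways. In bulk RNA, a change in the mix of cells and a change in RNA per cell cannot be told apart. For testing, the 6 libraries had to average 1 FPKM or more, and 33 genes did so, all except TFEB. At an adjusted p under 0.05 (edgeR, adjusted over all 11841 genes tested), 7 of the 33 were higher and 11 lower in shSLC1A5, and 15 did not pass. Over all tested genes 39.2% were called, and 20.2% were higher and 19.0% lower by the same rule, so 21.2% higher is close to the background and 33.3% lower is above it. The background depends on the expression minimum: at a mean of at least 5 FPKM, 3378 of 6749 genes were called. At that minimum ULK1, MITF and MCOLN1 were not tested either, and 8 of the remaining described genes were higher and 10 lower. These genes were chosen with earlier results known, so the difference from the background was not tested. The median log2 fold change of the 33 genes was -0.04, beside -0.01 over all tested genes, and the fold changes ran from -0.38 for NPC1 to 0.38 for CTSD. In FPKM the groups did not overlap for 10 genes on the higher side and 10 on the lower side, against 27.3% and 22.3% of all tested genes. With 3 libraries against 3 an exact two-sided permutation test of a single gene cannot go below p = 0.1.

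**Figure D1:**
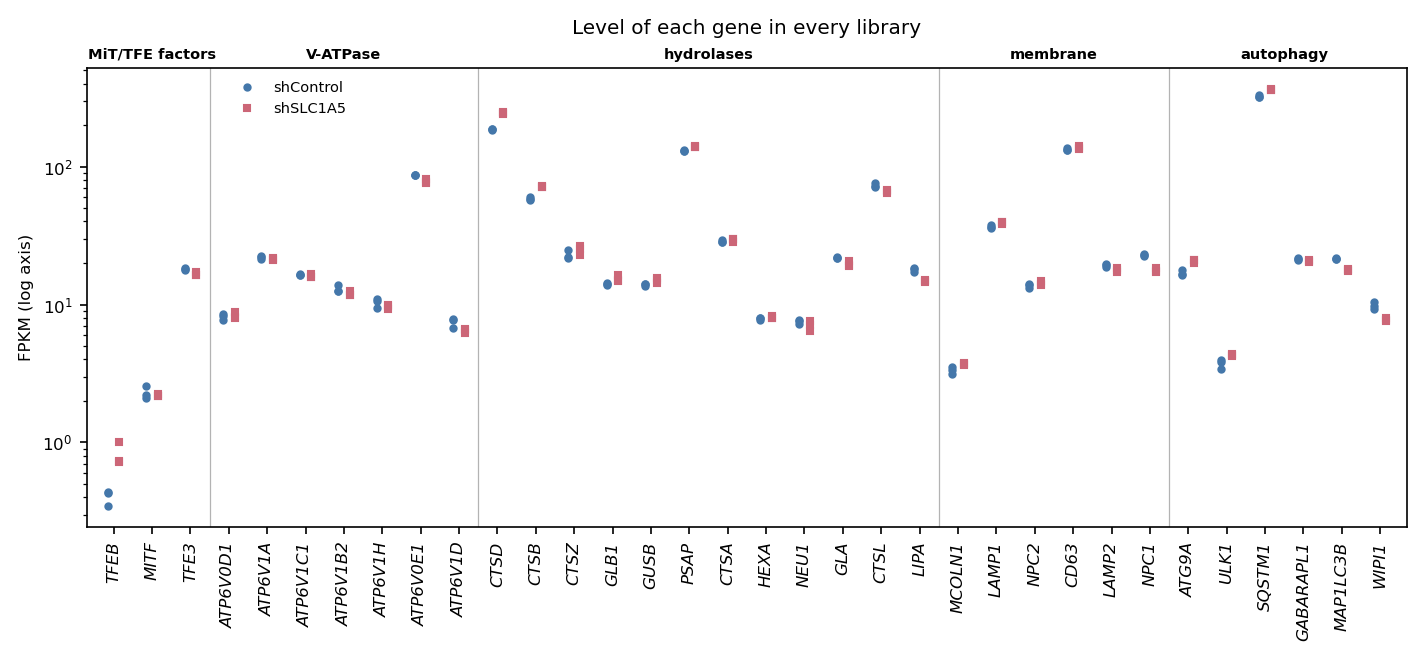
FPKM of each of the 34 genes (log axis) in the 3 shControl libraries (circles) and the 3 shSLC1A5 libraries (squares), grouped by role. Levels span from TFEB at 0.403 FPKM to SQSTM1 at 324 FPKM in shControl, a far wider range than the separation between the groups in any gene, which is widest for TFEB.

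Among the transcription factors the level per gene length stood in the order TFE3, MITF and TFEB in both groups, with no overlap between neighbours in the order. TFE3 was the main member by level and fell slightly, MITF did not pass the test, and TFEB, the least abundant, was about 2-fold higher in the shSLC1A5 libraries. TFEB (chromosome 6, 41683978 to 41736259, minus strand) was at 0.427, 0.346 and 0.438 FPKM in shControl and at 1.01, 0.729 and 0.719 in shSLC1A5, from 176, 141 and 166 counts against 460, 316 and 307. Every shSLC1A5 library lay above every shControl library, and replicate 1 of shSLC1A5, the library with the most myeloid reads, was the highest. Below the expression minimum, TFEB was tested in the fit that keeps genes by edgeR's filterByExpr (19527 genes, 12.2% called higher): the log2 difference by edgeR was 0.99 (SE 0.186, adjusted p = 0.00318). Without shSLC1A5 replicate 1 it was 0.81 (adjusted p = 0.0120), and after a GC/length correction, described further on, it was also 0.81 (adjusted p = 0.0137). With no filter on low values, where 34207 genes were tested, the log2 difference by edgeR was 1.00 (adjusted p = 0.0153).

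TFE3 was at 18.2, 17.8 and 18.3 FPKM in shControl and at 16.4, 17.2 and 16.2 in shSLC1A5, with each shSLC1A5 library below each shControl library. Its log2 difference by edgeR was -0.13 (SE 0.0369, adjusted p = 0.0145), and the adjusted p rose to between 0.0535 and 0.0625 when shControl replicate 1, shControl replicate 3 or shSLC1A5 replicate 3 was left out. After GC/length correction it was -0.32. MITF was at 2.58, 2.22 and 2.10 FPKM in shControl and at 2.17, 2.24 and 2.18 in shSLC1A5, with overlapping groups and a log2 fold change of -0.08 (95% confidence interval -0.27 to 0.11, adjusted p = 0.495 by edgeR).

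Of the 7 V-ATPase subunits 3 fell and 0 rose, where 19.0% of all tested genes were lower, with a median log2 fold change of -0.12. After GC/length correction 1 of 7 was lower, where 13.8% of all tested genes were, and the median was -0.06. In the V0 sector, ATP6V0E1, a small membrane subunit, was the most abundant pump transcript, at 87.1, 86.4 and 87.6 FPKM in shControl and 80.7, 77.9 and 75.9 in shSLC1A5. The groups did not overlap, and it fell, on the log2 scale, by 0.17 (SE 0.0302, adjusted p = 0.00139 by edgeR), or by 0.10 after the correction. ATP6V0D1, which joins the V0 ring to the central stalk, was at 8.18 ± 0.401 and 8.30 ± 0.448 FPKM (SD, n = 3), with a log2 fold change of 0.01 whose 95% confidence interval ran from -0.10 to 0.11. Its promoter carries TCACGTGA, shown above.

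In the V1 sector the stalk subunit ATP6V1D fell, on the log2 scale, by 0.22 (SE 0.0616, adjusted p = 0.0175 by edgeR). It was at 7.70, 6.81 and 7.81 FPKM in shControl and 6.51, 6.64 and 6.24 in shSLC1A5, and the second shControl library came closest to the other group. ATP6V1B2, a B subunit of the ATP-hydrolysing head, was at 12.5, 13.8 and 12.6 FPKM in shControl and 11.8, 12.5 and 11.8 in shSLC1A5, so that the groups overlapped, with a log2 fold change of -0.12 (adjusted p = 0.0435 by edgeR). That call was lost without shControl replicate 2, shSLC1A5 replicate 1 or shSLC1A5 replicate 3 (adjusted p from 0.107 to 0.189), and that of ATP6V1D without shControl replicate 1, shControl replicate 3 or shSLC1A5 replicate 3 (adjusted p from 0.0608 to 0.0661). Both were also lost after the correction, at -0.06 for ATP6V1B2 (adjusted p = 0.290) and -0.15 for ATP6V1D (adjusted p = 0.0948), and with no filter on low values; ATP6V1B2 failed with limma and at a minimum of 5 FPKM as well. The catalytic subunit ATP6V1A, at 21.9 and 21.5 FPKM, the regulatory subunit ATP6V1C1, at 16.52 and 16.04, and ATP6V1H, at 10.3 and 9.63, did not pass, with log2 fold changes of -0.04, -0.06 and -0.12 and overlapping groups. Without shControl replicate 1 ATP6V1H passed at -0.17 (adjusted p = 0.0121).

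Of the other V-ATPase subunits and assembly factors, 24 of 26 listed genes were in the table and 18 were tested. Of these 5 rose and 2 fell (27.8% and 11.1%), beside 20.2% and 19.0% of all tested genes, with a median log2 fold change of 0.06. After GC/length correction 2 rose and 1 fell, beside 11.6% and 13.8% of all tested genes. TCIRG1, an isoform of the V0 a subunit, rose from 13.3 ± 0.343 to 18.9 ± 0.824 FPKM (SD, n = 3) by 0.49 on the log2 scale, and by 0.18 after GC/length correction. ATP6V0C, the proton-carrying c subunit, rose by 0.34, and ROGDI, linked to pump assembly, by 0.36. These 2 were at 0.09 and 0.15 with the calls lost after that correction, and the call of ROGDI was also lost without any library except shControl replicate 2 or shSLC1A5 replicate 3 (adjusted p from 0.0750 to 0.128). The peripheral stalk subunits ATP6V1G1 and ATP6V1E1 fell by 0.27 and 0.12, or were at -0.17 and -0.07 after the correction. The call of ATP6V1E1 was lost there (adjusted p = 0.153), with limma, with no filter, and without shControl replicate 1, shControl replicate 3 or shSLC1A5 replicate 1 (adjusted p from 0.0723 to 0.0857).

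**Figure D2:**
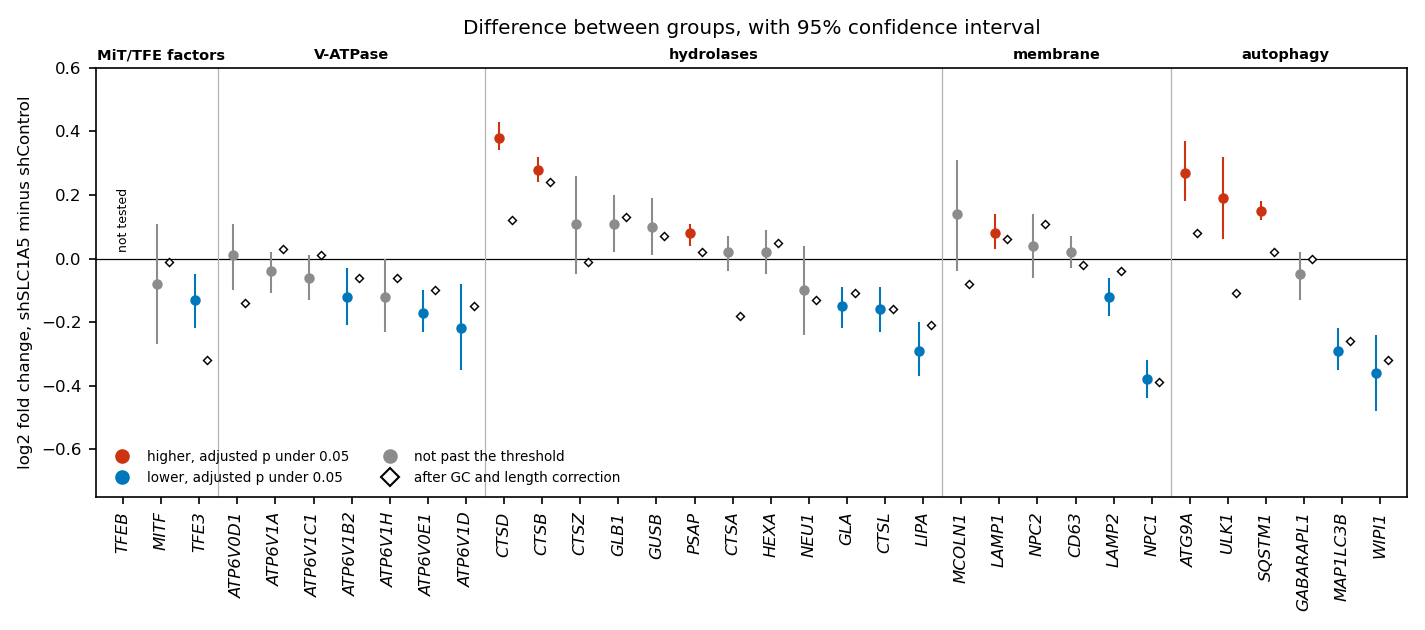
Log2 fold change of shSLC1A5 minus shControl by edgeR for each gene, with its 95% confidence interval (bars), coloured by the test; open diamonds are the values after GC/length correction. None of the 7 V-ATPase subunits plotted is past the threshold on the higher side, while hydrolases and autophagy genes lie on both sides, from 0.38 for CTSD to -0.36 for WIPI1.

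The hydrolases and their activator were called about as often as all tested genes (20.2% higher, 19.0% lower): 3 of 12 rose, 3 fell and 6 did not pass, with a median log2 fold change of 0.05. After GC/length correction 3 were higher and 4 lower, beside 11.6% and 13.8% of all tested genes. Among the proteases, CTSD and CTSB rose while CTSL fell. CTSD (chromosome 11, 1752755 to 1764573, minus strand), the major aspartic protease of lysosomes, was at 186, 185 and 187 FPKM in shControl and at 248.5, 247 and 239.8 in shSLC1A5. The 3 shSLC1A5 libraries lay well above the shControl libraries, which were nearly equal, and the log2 difference by edgeR was 0.38 (SE 0.0192, adjusted p = 1.59e-07). It was 0.37 without shSLC1A5 replicate 1 and 0.12 after GC/length correction (adjusted p = 0.00103).

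CTSB, a cysteine protease (chromosome 8, 11842524 to 11868713, minus strand), was at 57.6, 58.0 and 60.0 FPKM in shControl and at 71.6, 72.8 and 71 in shSLC1A5. The groups were well apart, and the log2 difference by edgeR was 0.28 (SE 0.0194, adjusted p = 1.62e-06), 0.28 without shSLC1A5 replicate 1 and 0.24 after GC/length correction. CTSL, another cysteine protease, was at 71.7, 72.5 and 75.9 FPKM in shControl and at 67.2, 64.3 and 67.0 in shSLC1A5, with no overlap. It fell by 0.16 (SE 0.0313, adjusted p = 0.00215 by edgeR), and by 0.16 after the correction.

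CTSZ, a carboxypeptidase, was at 22.9 ± 1.86 and 24.9 ± 1.93 FPKM (SD, n = 3) and CTSA, which protects the sialidase NEU1 and GLB1, at 28.7 ± 0.569 and 29.3 ± 0.968, both with overlapping groups. Their log2 fold changes were 0.11 and 0.02 (adjusted p = 0.251 and 0.678 by edgeR). CTSA was at -0.18 after GC/length correction (adjusted p = 0.000604).

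Of the glycosidases, GLA, the alpha-galactosidase, was at 21.6, 21.9 and 21.99 FPKM in shControl and 19.2, 19.5 and 20.7 in shSLC1A5, below every shControl library, and fell, on the log2 scale, by 0.15 (SE 0.0314, adjusted p = 0.00284 by edgeR). HEXA, GLB1, GUSB and NEU1, which cleave hexosamine, galactose, glucuronic acid and sialic acid residues, did not pass. The beta-galactosidase GLB1 was at 13.9, 14.3 and 14 FPKM in shControl and 14.7, 16.3 and 14.98 in shSLC1A5, with no overlap and a log2 fold change of 0.11 (adjusted p = 0.0565 by edgeR). GUSB likewise did not overlap, at 0.10 (adjusted p = 0.0875). Both passed without shSLC1A5 replicate 1 (0.13 each, adjusted p = 0.0345 and 0.0300), and GLB1 also passed with the replicate block (adjusted p = 0.0492), with DESeq2 (adjusted p = 0.0341) and after GC/length correction (adjusted p = 0.0419). HEXA was at 0.02 and NEU1 at -0.10, with 95% confidence intervals of -0.05 to 0.09 and -0.24 to 0.04.

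LIPA, the acid lipase that frees cholesterol and fatty acids from lipoprotein lipids, was at 17.3, 18.1 and 18.3 FPKM in shControl and at 15.2, 14.5 and 14.8 in shSLC1A5. The groups were apart and it fell, on the log2 scale, by 0.29 (SE 0.0371, adjusted p = 0.000154 by edgeR), or by 0.21 after GC/length correction. PSAP, the precursor of the saposins that help glycosidases reach membrane lipids, was at 131, 131 and 130.5 FPKM in shControl and 138, 138.5 and 141 in shSLC1A5. The shControl libraries were nearly equal and all lower, and PSAP rose by 0.08 (SE 0.0171, adjusted p = 0.00538 by edgeR); after the correction it was at 0.02 (adjusted p = 0.373).

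The 43 other hydrolases and activators listed leaned higher. Of these, 42 were in the table and 37 tested, with a median log2 fold change of 0.08. Of those tested, 13 rose (35.1%) and 4 fell (10.8%), beside 20.2% and 19.0% of all tested genes. After GC/length correction 12 rose and 2 fell, beside 11.6% and 13.8% of all tested genes. GAA, the acid glucosidase that digests glycogen, rose from 7.13 ± 0.308 to 11.2 ± 0.523 FPKM (SD, n = 3), or 0.64 on the log2 scale and 0.35 after the correction. SGSH, a sulfamidase of heparan sulfate breakdown, rose by 0.60 and the hyaluronidase HYAL2 by 0.56, or by 0.40 and 0.29. CTSS, a cysteine protease, fell from 49.1 ± 2.09 to 38.6 ± 1.09 FPKM, a log2 fold change of -0.36. PPT1, a thioesterase, fell by 0.11, a call lost after GC/length correction (-0.06).

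Among the membrane proteins and carriers 1 of 6 rose, 2 fell and 3 did not pass, where 20.2% and 19.0% of all tested genes were higher and lower. Their median log2 fold change was 0.03. After GC/length correction 0 were higher and 1 lower, beside 11.6% and 13.8% of all tested genes. NPC1 (chromosome 18, 23506184 to 23576947, minus strand), which exports cholesterol from the lysosome, had the largest fall of the 33 genes tested. It was at 22.5, 23.1 and 22.7 FPKM in shControl and at 17.1, 17.6 and 18.4 in shSLC1A5, with no overlap, and fell, on the log2 scale, by 0.38 (SE 0.0263, adjusted p = 1.69e-06 by edgeR), a level 23.1% lower. The value was -0.36 without shSLC1A5 replicate 1 and -0.39 after GC/length correction. NPC2, the luminal protein that hands cholesterol to NPC1, was at 13.7 ± 0.501 and 14.2 ± 0.498 FPKM with overlapping groups and a log2 fold change of 0.04 (95% confidence interval -0.06 to 0.14).

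The abundant glycoproteins LAMP1 and LAMP2, which line the lysosomal membrane, went in opposite directions by small amounts. LAMP1 was at 35.9, 36.4 and 37.9 FPKM in shControl and at 39.4, 40.0 and 38.4 in shSLC1A5, just apart, with a log2 fold change of 0.08 (SE 0.0252, adjusted p = 0.0226 by edgeR). LAMP2 was at 18.7, 19.7 and 19.3 FPKM in shControl and 17.3, 18.3 and 17.9 in shSLC1A5, also just apart, with a log2 fold change of -0.12 (SE 0.0265, adjusted p = 0.00404 by edgeR). Both calls were lost after GC/length correction (0.06 and -0.04), and that of LAMP1 was also lost on leaving out shControl 1, shControl 2, shSLC1A5 1 or shSLC1A5 2 (adjusted p from 0.0702 to 0.0994).

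CD63, a tetraspanin of late endosomes, was the most abundant of these 6, at 133, 133 and 136 FPKM in shControl and 134, 141 and 135 in shSLC1A5, with overlapping groups and a log2 fold change of 0.02 (adjusted p = 0.558 by edgeR). MCOLN1, the calcium channel TRPML1, was at 3.51, 3.33 and 3.11 FPKM in shControl and 3.74, 3.63 and 3.68 in shSLC1A5. Its groups did not overlap, but the log2 fold change of 0.14 did not pass (adjusted p = 0.192 by edgeR) and was -0.08 after the correction. It is the gene whose promoter carries the 10-letter palindrome.

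Of the 35 other membrane proteins, carriers and sorting receptors listed, 31 were tested, with a median log2 fold change of 0.04. Of these 10 rose (32.3%) and 3 fell (9.68%), beside 20.2% and 19.0% of all tested genes. After GC/length correction 6 rose and 2 fell, beside 11.6% and 13.8% of all tested genes. TMEM175, a potassium and proton channel, SIDT2, and the endolysosomal cation channel TPCN1 rose by 0.46, 0.44 and 0.38 on the log2 scale, or were at 0.19 (call lost), 0.28 and 0.23 after the correction. SORT1 and M6PR, receptors that carry hydrolases to lysosomes, fell by 0.38 and 0.17, and with the correction stood at -0.34 and -0.11. LAPTM5 fell by 0.10, a call lost after the correction and without shControl replicate 1 or shSLC1A5 replicate 3 (adjusted p = 0.0599 and 0.0667).

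Of the autophagy genes 3 of 6 rose, 2 fell and 1 did not pass, where 20.2% and 19.0% of all tested genes were higher and lower. Their median log2 fold change was 0.05. After GC/length correction 0 were higher and 2 lower, beside 11.6% and 13.8% of all tested genes. SQSTM1 (chromosome 5, 179806398 to 179838078, plus strand), which encodes the cargo receptor p62, was the most abundant of the 34 transcripts, at 320.4, 320.1 and 331 FPKM in shControl and 360.4, 367 and 359.9 in shSLC1A5. The groups were well apart, and SQSTM1 rose, on the log2 scale, by 0.15 (SE 0.0155, adjusted p = 3.17e-05 by edgeR). ATG9A, a lipid scramblase on the vesicles that seed autophagosomes, was at 16.4, 17.8 and 16.5 FPKM in shControl and 20.9, 19.9 and 21.1 in shSLC1A5, without overlap, and rose by 0.27 (SE 0.0422, adjusted p = 0.000511 by edgeR).

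ULK1, the kinase that starts autophagy and is held back by mTORC1, was at 3.42, 3.82 and 3.97 FPKM in shControl and 4.36, 4.33 and 4.22 in shSLC1A5, with no overlap, and rose by 0.19 (SE 0.0578, adjusted p = 0.0226 by edgeR). These 3 calls were lost after GC/length correction: SQSTM1 was at 0.02 (adjusted p = 0.375), ATG9A at 0.08 (adjusted p = 0.189) and ULK1 at -0.11 (adjusted p = 0.191). The call of ULK1 was also lost on leaving out shControl 1, shSLC1A5 1 or shSLC1A5 2 (adjusted p from 0.0591 to 0.0800).

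WIPI1 (chromosome 17, 68420948 to 68457499, minus strand), which binds phosphoinositides on the forming autophagosome, was at 9.78, 10.4 and 9.32 FPKM in shControl and at 7.95, 7.54 and 7.77 in shSLC1A5. All shSLC1A5 libraries lay below, and WIPI1 fell, on the log2 scale, by 0.36 (SE 0.0554, adjusted p = 0.000520 by edgeR), or by 0.32 after GC/length correction. MAP1LC3B (chromosome 16, 87383953 to 87404779, plus strand), the LC3 protein that is joined to lipid on autophagosomes, was at 21.4, 21.5 and 21.9 FPKM in shControl and at 17.6, 17.8 and 18.1 in shSLC1A5. It was lower in each shSLC1A5 library and fell by 0.29 (SE 0.0291, adjusted p = 2.69e-05 by edgeR), or by 0.26 after the correction. GABARAPL1, of the same ATG8 family and of similar level, was at 21.6, 21.4 and 21.0 FPKM and at 20.8, 20.2 and 21.1, with overlapping groups and a log2 fold change of -0.05 (95% confidence interval -0.13 to 0.02); that of MAP1LC3B was -0.35 to -0.22, and the difference between these genes was not tested.

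Among the 51 other autophagy genes listed, 47 were tested, with a median log2 fold change of -0.05. Of these 7 rose (14.9%) and 11 fell (23.4%), beside 20.2% and 19.0% of all tested genes. After GC/length correction 7 rose and 9 fell, beside 11.6% and 13.8% of all tested genes. BNIP3 and BNIP3L, mitophagy receptors that are also induced by low oxygen, rose by 0.73 and 0.48 on the log2 scale, with BNIP3 going from 38.8 ± 0.932 to 65.1 ± 1.02 FPKM (SD, n = 3). ATG2A, a lipid transfer protein, rose by 0.31, a call lost after GC/length correction (0.05). EPG5, which acts in the fusion of autophagosomes with lysosomes, TMEM41B and ATG5 fell by 0.40, 0.28 and 0.27, and with the correction stood at -0.34, -0.19 and -0.17. Of the 22 tested regulators of TFEB at the lysosome, 5 rose and 5 fell, 22.7% each and near the 20.2% and 19.0% of all tested genes. After GC/length correction 2 rose and 2 fell, beside 11.6% and 13.8% of all tested genes. RPTOR, the mTORC1 scaffold, rose by 0.35, or 0.17 after the correction, and RRAGA, a Rag GTPase, by 0.23, while MTOR, the kinase itself, fell by 0.16 and RRAGC fell by 0.18, a call lost after the correction (-0.11). MLST8 rose by 0.25 but was at -0.03 after the correction, and PPP3CA, a calcineurin subunit, was at -0.11 with overlapping groups and kept its call only without shControl replicate 2 among the single libraries left out (for the others, adjusted p from 0.0509 to 0.155).

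**Figure D3:**
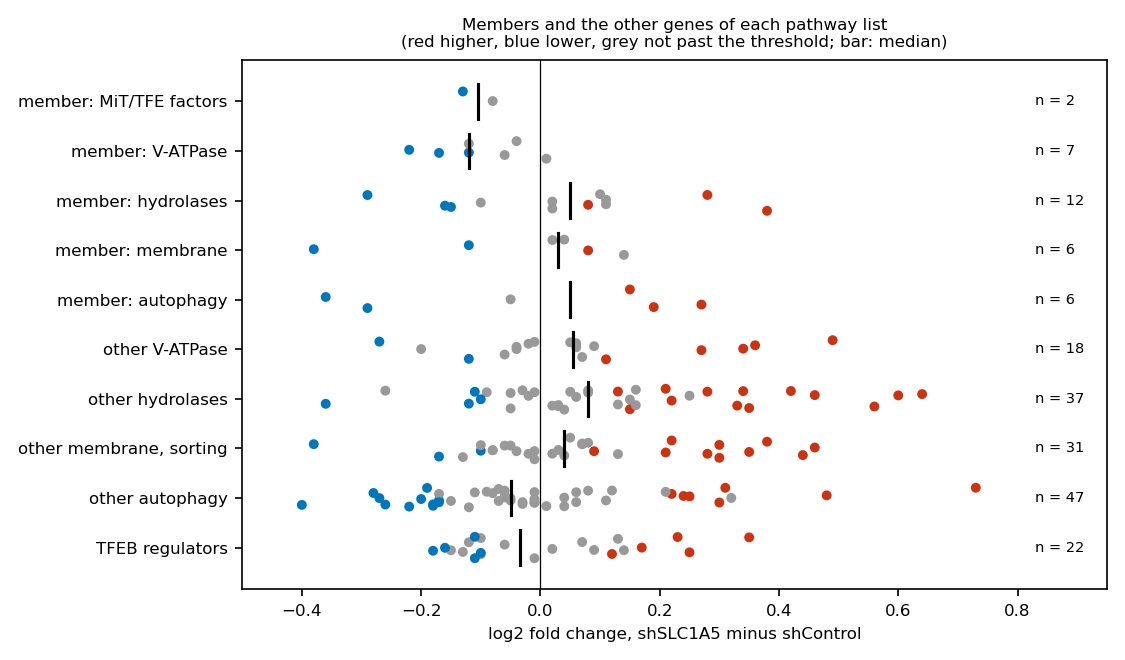
Log2 fold changes by edgeR of the tested genes, 1 point per gene, for the 5 role classes (labelled member) and for the 5 lists of other genes of the same pathways; bars are medians and n is the number tested. The list of other hydrolases has its median at 0.08 with 13 genes higher and 4 lower (35.1% and 10.8%, beside 20.2% and 19.0% of all tested genes). The V-ATPase class has its median at -0.12.

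Fold changes followed transcript GC content, a property of the sequence that can also mark differences in library preparation. Across the 33 tested genes the Spearman correlation between log2 fold change and the GC content of the longest transcript was 0.583, and across 11800 tested genes 0.490, in the same libraries; genes are not independent replicates and no p is given. The 7 higher genes had a median GC content of 58.0% (51.2% to 64.2%) and the 11 lower genes 49.2% (37.7% to 59.8%), beside 51.6% for the 15 that did not pass. When GC content and length were fitted per library and removed, 3 genes were higher (CTSD, CTSB and GLB1) and 9 lower (NPC1, WIPI1, TFE3, MAP1LC3B, LIPA, CTSA, CTSL, GLA and ATP6V0E1), where 11.6% and 13.8% of all tested genes were called. Of the 18 uncorrected calls, 10 were kept in the same direction. Whether library preparation or the cells gave the trend was not tested.

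**Figure D4:**
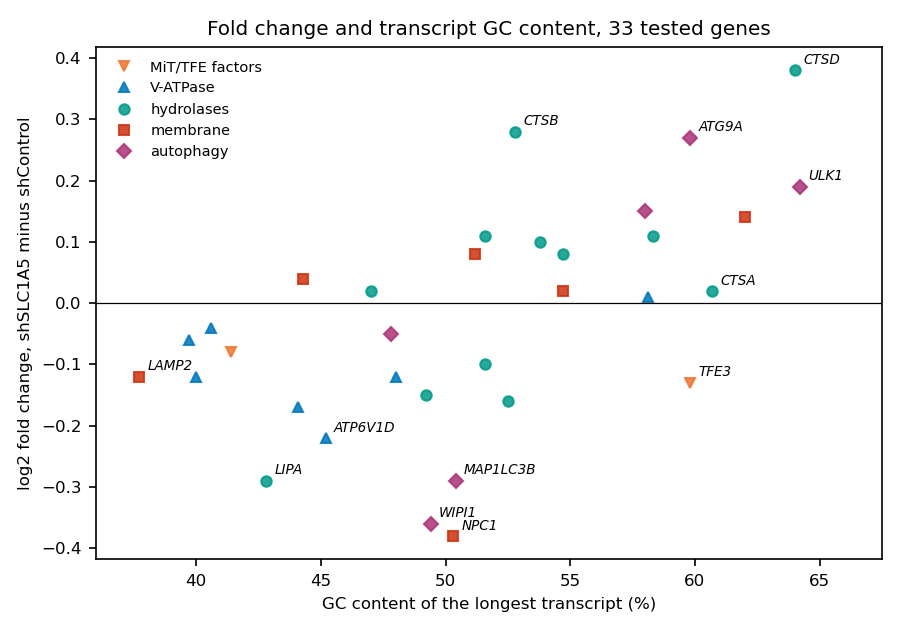
Log2 fold change by edgeR against the GC content (percent) of the longest GENCODE 29 transcript for the 33 tested genes, with symbols for the role classes. Genes at 58% GC or more include CTSD, ATG9A and ULK1 on the higher side and TFE3 on the lower side, and the V-ATPase genes lie mostly below 50%.

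Some genes share their listed span with another gene whose reads could be counted with theirs if strand was not used, which the sources used here do not state. The span of LIPA holds IFIT1, IFIT2 and IFIT3 on the other strand, with mean counts of 11800, 32400 and 27000 beside 5840 for LIPA, and log2 fold changes of -0.06, -0.38 and -0.25. GLA overlaps RPL36A (log2 fold change -0.20), ATP6V1D overlaps MPP5 (-0.17) and SQSTM1 overlaps MGAT4B (0.25), which moved in the same direction as the gene named first. MAP1LC3B overlaps FBXO31 on the other strand, which was at 0.35, opposite to MAP1LC3B. NPC1 overlaps RMC1 on the other strand, with 1500 mean counts beside 14300 and a log2 fold change of -0.09. WIPI1 overlaps ARSG on the other strand, which was not tested, with 178 mean counts beside 2190. MCOLN1 overlaps PNPLA6 on its own strand, with 4300 mean counts beside 1020, and ATG9A overlaps a transcript listed as AC068946 on its own strand, with 2160 beside 6540. MAP1LC3B2, a near copy of MAP1LC3B, was at 1.021 and 1.187 FPKM. The part of these reads in the values above was not tested.

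Set beside the promoter letters, the 7 genes with CACGTG comprised CTSD and LAMP1, which were higher, and ATP6V0D1, CTSA, NEU1, CD63 and MCOLN1, which did not pass. Of the 8 lower genes with a matched promoter, 0 carried it, and of the 5 higher ones 2 did, beside 10.5% of matched promoters of tested genes. These are uncorrected calls. After GC/length correction CTSA was lower (-0.18, adjusted p = 0.000604 by edgeR). LAMP1 then lost its call (0.06, adjusted p = 0.148 by edgeR), and CTSD stayed higher at 0.12. A link between the letters and the direction was not tested. Uncorrected, the log2 fold changes of the 7 genes with CACGTG ran from -0.10 for NEU1 to 0.38 for CTSD.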

How the data were processed

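The authors deposited 1 table with, per the file headers, counts per gene and FPKM for each of 6 libraries. The tools named, per the submitters' processing notes, are fastp, HISAT2 and StringTie; their versions, the build, the annotation and the strand setting were not given in the sources used here. All 34 genes overlap the same gene in GENCODE 29, so coordinates are given on GRCh38 as the table states them. Columns were matched by NC (control), sh and the number in the title; 0 were left unmapped. Same-group library pairs had chi-square values of 9.82 to 16.7 per gene, so none repeats the counts of another. The values cannot tell whether libraries share a culture or an RNA preparation. The members and lists were chosen with earlier results of these data known.

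Genes averaging 1 FPKM or more were tested with edgeR 4.0.16 (R 4.3.3) on the counts: TMM, group alone, quasi-likelihood F tests, Benjamini-Hochberg over all 11841 genes, threshold 0.05; the standard error is the size of the log2 fold change divided by the square root of F. The GC/length correction fitted each library's deviations by loess (span 0.3) on the longest GENCODE 29 transcript and used the fit as edgeR offsets. Alternatives were DESeq2 1.42.0, limma 3.58.1 on log2(FPKM + 1) and log2(FPKM + 0.1), other filters, DESeq2 size factors, a replicate block and each library left out; the block joined to the GC/length correction, and the further TFEB fits, were chosen after seeing the data. The steps were tested on simulated counts. Genes named individually are all members, and up to 3 largest rises and 3 largest falls past the threshold per pathway list. 1 gene that this rule names is not reported here.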

Additional observations from a re-analysis of the deposited data

How the results depend on the processing

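The counts of 7 higher and 11 lower genes were within 1.5 times under every alternative except the GC/length correction, with 3 higher and 9 lower, with or without the replicate block. With single libraries left out they ran from 5 to 7 and from 8 to 11. The correction kept 10 of the 18 calls, lost 8, added 2 (GLB1 and CTSA) and turned the sign of 8 of 33 fold changes: ATP6V0D1 (-0.14), ATP6V1A (0.03), ATP6V1C1 (0.01), CTSA (-0.18), CTSZ (-0.01), CD63 (-0.02), MCOLN1 (-0.08) and ULK1 (-0.11), each also with the block. It also turned MLST8 (-0.03). Of these genes, ULK1 and MLST8 alone were called in the uncorrected fit. ATP6V0D1 was also turned by filterByExpr (0.00, adjusted p = 0.980). Leaving out libraries turned 4 uncalled genes: MITF (0.02) and ATP6V0D1 (-0.03) without shControl replicate 1, ATP6V0D1 (-0.03) and CD63 (0.00) without shSLC1A5 replicate 2, and HEXA (0.00) without shControl replicate 3; ATP6V0D1 ran from -0.03 to 0.04. Under filterByExpr TFEB was among the 7 higher genes and LAMP1 was not.

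Calls over all genes moved with the setting too. They numbered 4641 of 11841 in the main fit and 3466 of 34207 with no filter. With filterByExpr they were 4706 of 19527, and at 5 FPKM 3378 of 6749. Of the same 11841 genes, 3004 were called after the correction, 2824 with correction and block and 4470 with the block. Limma called 4132 or 4129, and 3863 to 4081 were called with libraries left out. The other V-ATPase genes, 18 of them tested in the main fit, were called higher 5 times. That was 2 with no filter, 3 at a mean of at least 5 FPKM and 2 after the correction. It was 3 with correction and block, and 3 to 5 with libraries left out. They were called lower 2 times, or 1 with limma at either pseudocount, with no filter, after the correction with or without the block, and 1 to 2 with libraries left out. The other hydrolases were called lower 4 times, or 2 after the correction with or without the block, and 2 to 4 with libraries left out. The other membrane genes were called higher 10 times, or 6 after the correction with or without the block. Regulators of TFEB were called higher 5 times, or 2 with no filter, 3 with filterByExpr, 2 after the correction with or without the block, 3 with the replicate block, and 3 to 5 with libraries left out. They were called lower 5 times, or 3 with limma at either pseudocount, with no filter or at 5 FPKM, 2 after the correction with or without the block, and 3 to 4 with libraries left out. At a mean of at least 5 FPKM, some genes called in the main fit were no longer tested, such as ROGDI at 2.07 and 2.68 FPKM. The cause of the other differences was not tested.

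Deviations of same-numbered libraries correlated at -0.151, 0.0356 and -0.0343, and those of differently numbered ones at -0.116 to 0.122. Each deviation is taken from a mean of 3 libraries, which constrains these values. They cannot tell whether a number marks a shared batch. The replicate block gave 8 higher and 11 lower genes. TFEB, at 141 to 460 counts, is the gene that depth limits most.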
